A study of Mus musculus with 45 samples.

Results

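The 10 genes described here encode the enzymes that lengthen fatty acid chains and place double bonds in them. They are the desaturase genes Scd1, Scd2, Fads1 and Fads2 and the elongase genes Elovl1, Elovl2, Elovl3, Elovl5, Elovl6 and Elovl7. They were chosen by name, by a rule that uses no measured value but was set with earlier results of these data known, and all 10 were found, each with 1 row, among the 22080 genes of the table. Their NCBI gene identifiers are 20249 (Scd1), 20250 (Scd2), 76267 (Fads1), 56473 (Fads2), 54325 (Elovl1), 54326 (Elovl2), 12686 (Elovl3), 68801 (Elovl5), 170439 (Elovl6) and 74559 (Elovl7). The values are log2 expression from 45 Affymetrix mouse gene arrays of liver, kidney and brain, after the authors' normalization.

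The animals were male C57BL/6 mice, 7 weeks of age, with 8 mice in each of 5 diet groups, and tissues were taken on day 43 after some hours without food. The Control group was fed AIN-93 diet. The HCD group was fed AIN-93 with 0.5% cholesterol, and the other groups were fed this high-cholesterol diet with 1 addition each. HCD+Gl-1 received 1.0% of an extract of Ganoderma lucidum, a medicinal mushroom, cultivated on oak sawdust. HCD+Gl-2 received 1.0% of an extract of the same mushroom whose substrate held 10 mM acetylsalicylic acid. HCD+Sim received simvastatin, an inhibitor of cholesterol synthesis, at 0.03 g in every 100 g of diet. By the methods the RNA of a group was pooled, with 4 mice in pool A, 4 in pool B, and both together in pool C. The 3 arrays of a group therefore rest on 2 separate pools. The tests counted these arrays as 3 independent replicates and took the spread over all groups, so their p-values can be too small. The extracts were given at 1 dose each, so no dose response was measured.

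Fatty acid synthase releases mainly palmitate. ELOVL6 lengthens palmitate to stearate, and the stearoyl-CoA desaturases SCD1 and SCD2 turn these saturated chains into monounsaturated ones. The essential fatty acids linoleic and alpha-linolenic acid take another route, in which FADS2 and FADS1 add double bonds and ELOVL5 and ELOVL2 lengthen the chain between these steps, up to arachidonic and docosahexaenoic acid. ELOVL1, ELOVL3 and ELOVL7 make very long saturated and monounsaturated chains. In liver, several of these genes are known targets of the sterol-responsive factor SREBP-1c and of the oxysterol receptor LXR.

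The markers of each labelled tissue were high in its own arrays. The mean of 5 hepatocyte markers lay between 13.21 and 13.31 in the 15 liver arrays and at 8.39 or below in the others. The mean of 5 kidney tubule markers was at least 12.65 in kidney and at most 5.87 elsewhere, and that of 5 neuron markers was at least 11.82 in brain and at most 6.33 elsewhere. Some liver arrays carried other signals. The mean of 7 pancreas acinar markers was 7.57 and 8.01 in pools A and B of HCD+Sim, against 6.19 to 6.48 in the other 13 liver arrays. The mean of 6 skeletal muscle markers was 7.46 and 7.91 in those pools and 6.78 or below in the rest. The mean of 8 immediate early genes was 8.48 and 8.97 in pools A and C of HCD+Gl-2, against 6.70 to 7.19 elsewhere in liver. The mean of 5 squamous epithelium markers was 6.47 and 6.95 in pools A and B of Control, against 5.68 to 6.01 in the other 13 liver arrays. Pool C of HCD+Sim, with 6.48 for pancreas, lay below both of the pools it is said to be made of. For the 10 genes in liver, pool C lay outside the values of pools A and B in 44 of 50 cases, and over all genes in 71.0% of cases.

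The tissues differed widely in these genes. Differences in level were tested on the Control diet with limma, over all genes, and an adjusted p of at most 0.05 was called a change. All 10 members differed between liver and kidney and all 10 between liver and brain, where 48.4% and 70.0% of all genes did. Between kidney and brain 7 differed, with 59.1% of all genes. A gene's level is compared here only with its own level in another tissue, because levels of different probe sets do not share a scale. In bulk tissue, fewer cells of a type and less RNA per cell cannot be told apart.

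Elovl3 had the widest range. Its Control arrays read 12.04, 12.09 and 11.30 in liver, 4.58, 4.72 and 4.58 in kidney, and 4.62, 4.81 and 4.84 in brain. The measured level in liver was above that in kidney by 7.18 ± 0.17 (SE, n = 3 arrays per group, adjusted p = 2.6e-31) and above that in brain by 7.06 ± 0.17 (adjusted p = 2.4e-31), while kidney and brain overlapped (adjusted p = 0.55). Its kidney and brain values lay under the 25th percentile of all values in the table, 5.65, so its level there cannot be told from background and both differences are lower bounds. Elovl2, which carries polyunsaturated chains towards docosahexaenoic acid, read 12.22, 12.24 and 11.98 in liver, 8.32, 8.24 and 8.28 in kidney and 7.52, 7.73 and 7.26 in brain. The order liver, kidney, brain had a difference at each step, of 3.87 ± 0.09 (SE, adjusted p = 4.3e-31) and 0.78 ± 0.09 (SE, adjusted p = 1.3e-09).

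Scd1 and Scd2 had opposite orders. Scd1, the main hepatic stearoyl-CoA desaturase, was at 13.43 ± 0.09 (SD, n = 3) in liver, 10.79 ± 0.08 in kidney and 10.84 ± 0.26 in brain, and kidney and brain overlapped (adjusted p = 0.64). Scd2, the form known from brain, was at 12.63 ± 0.09 in brain, 9.75 ± 0.09 in kidney and 7.46 ± 0.14 in liver, and each step in this order passed the test. Liver minus brain was -5.16 ± 0.10 (log2, SE, adjusted p = 1.7e-34), which is 35.9-fold lower in liver. The liver values of Scd1 lay between 13.30 and 13.57 over all diets, near the highest value of the table, 14.02.

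Of the remaining members, Elovl5 was at 12.45 ± 0.05 in liver, 9.78 ± 0.05 in kidney and 9.94 ± 0.26 in brain (SD, n = 3), with kidney and brain not separated (adjusted p = 0.17). Fads1 followed the order liver, brain, kidney (11.59 ± 0.12, 10.42 ± 0.05 and 9.93 ± 0.02), and Fads2 the order liver, kidney, brain (12.11 ± 0.08, 10.96 ± 0.02 and 10.18 ± 0.02). Elovl6 followed the order liver, brain, kidney (10.28 ± 0.14, 9.96 ± 0.11 and 8.36 ± 0.14), and its step from liver to brain was only 0.32 ± 0.14 (SE, adjusted p = 0.043). Kidney was highest for Elovl1 (10.70 ± 0.05, against 10.16 ± 0.05 in liver and 8.58 ± 0.23 in brain) and for Elovl7 (10.03 ± 0.01, against 8.18 ± 0.24 in brain and 5.75 ± 0.18 in liver). Elovl7 in liver was close to the 25th percentile of all values.

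**Figure D1:**
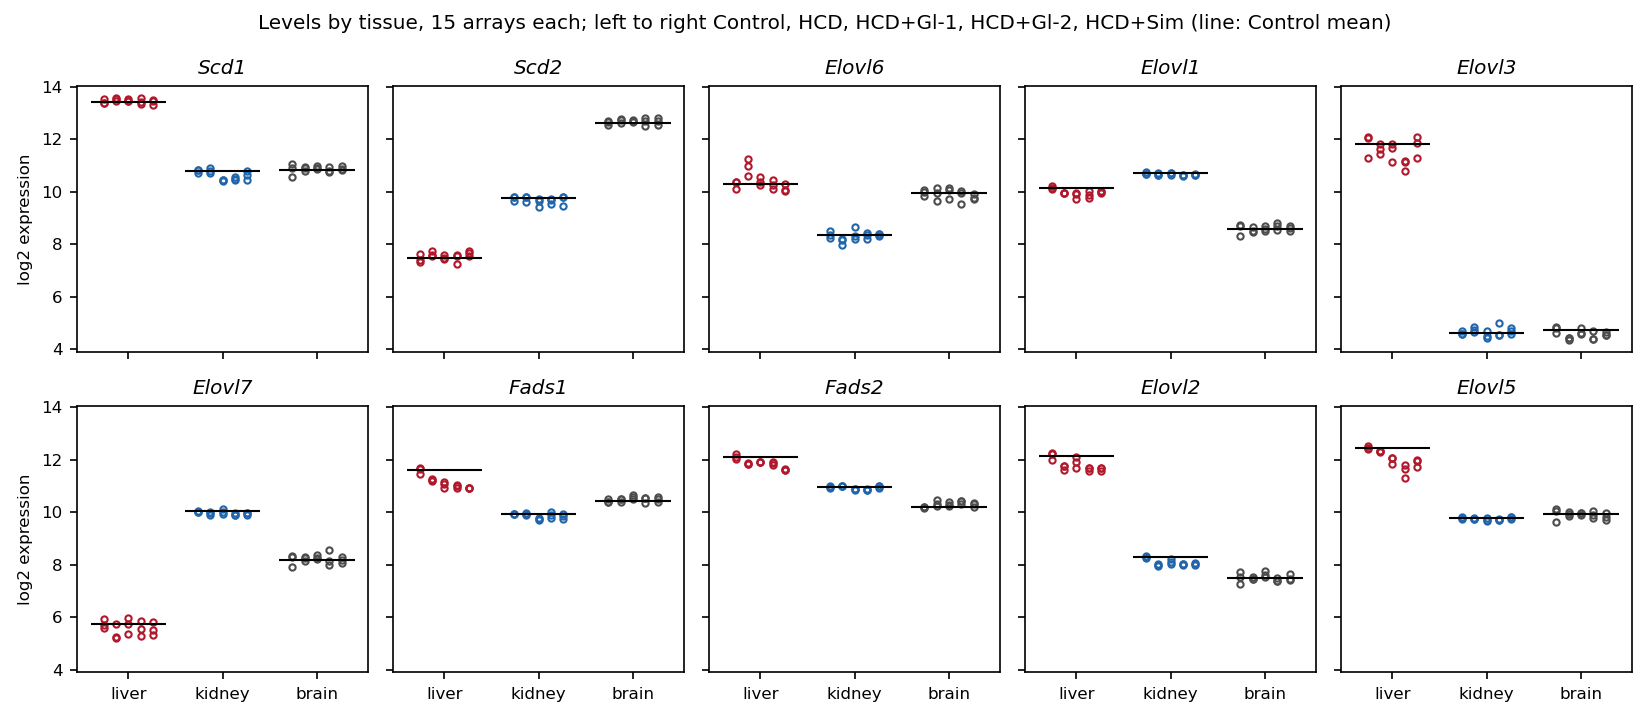
Level of each of the 10 genes (log2 expression, vertical axis) in the 15 arrays of liver, kidney and brain, with the 5 diets from left to right within a tissue and a line at the mean of the Control arrays. Elovl3, Elovl2 and Scd1 were highest in liver, Scd2 in brain and Elovl7 in kidney. In each gene the spread between diets was smaller than the widest difference between tissues. The liver means of Elovl6 spanned 0.82 over the diets, more than its step from liver to brain, and those of Fads1 spanned 0.67.

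Promoter sequence was at hand for 6 of the 10 members, from RefSeq on mouse build GRCm38.p6, and the 250 bases before the annotated start were searched on both strands. The 3 printed here belong to the genes that, among these 6, were changed in the most liver comparisons. Capitals mark matches to CCAAT or its reverse complement ATTGG.
Elovl6, chr3:129532136-129532385, plus strand: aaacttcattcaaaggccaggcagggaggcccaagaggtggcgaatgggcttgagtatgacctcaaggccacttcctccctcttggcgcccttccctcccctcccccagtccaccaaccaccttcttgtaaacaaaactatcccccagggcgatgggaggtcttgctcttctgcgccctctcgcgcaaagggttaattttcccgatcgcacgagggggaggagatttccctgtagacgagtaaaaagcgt
Elovl5, chr9:77917115-77917364, plus strand: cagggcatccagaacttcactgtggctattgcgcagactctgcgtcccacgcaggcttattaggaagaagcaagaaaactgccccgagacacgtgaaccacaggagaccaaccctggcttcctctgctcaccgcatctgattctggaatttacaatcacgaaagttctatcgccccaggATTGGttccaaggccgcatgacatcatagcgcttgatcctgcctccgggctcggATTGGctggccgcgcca
Fads2, chr19:10101504-10101753, minus strand: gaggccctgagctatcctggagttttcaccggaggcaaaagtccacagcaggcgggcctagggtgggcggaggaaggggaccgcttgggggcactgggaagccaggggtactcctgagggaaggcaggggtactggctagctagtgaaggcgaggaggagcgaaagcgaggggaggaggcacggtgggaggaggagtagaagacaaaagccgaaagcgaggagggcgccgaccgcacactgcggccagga

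Elovl5 held 2 CCAAT matches, whose first bases lie 71 and 17 bases before the start, and 1 of the 2 windows of Elovl1 held 1 match. The Elovl6 and Fads2 windows held none, and 33.8% of all 32851 windows of the table held at least 1. None of the windows of the 6 members held the letters TCACNCCAC or TCACNCCAG of the sterol regulatory element (2.3% of all windows), the clock D-box TTANNTAA (5.43%) or the DR4 LXR element (0.0152%). The windows of Elovl6, Elovl5 and Fads2 were 56.4%, 55.6% and 64.8% G and C, against a median of 52.4% over all windows.

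The high-cholesterol diet changed 4 of the 10 members in liver, where it changed 1.34% of all genes. Elovl6 rose, and Fads1, Fads2 and Elovl2 fell. The share of all genes that rose was 0.575% and the share that fell was 0.765%. The median log2 fold change of the members was -0.19, against -0.01 over all genes. No member passed the study's stricter rule, which also asks for an absolute log2 fold change over 0.7 and was met by 0.245% of all genes.

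Elovl6, the elongase of palmitate, read 10.36, 10.36 and 10.12 in pools A, B and C of Control liver. It read 10.98, 11.25 and 10.62 in HCD liver, so that every HCD array was above every Control array. The log2 fold change was 0.67 ± 0.14 (SE, adjusted p = 0.0059), or 1.59-fold. Leaving out pool B of HCD or pool C of Control ended the call, with log2 fold changes of 0.52 at the lowest.

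The 3 genes that fell all belong to the polyunsaturated route. Fads1, the desaturase that makes arachidonic acid, read 11.65, 11.68 and 11.46 on Control and 11.23, 11.26 and 11.17 on HCD, a log2 fold change of -0.38 ± 0.07 (SE, adjusted p = 0.0014). Fads2, which acts at the first step of the route, read 12.04, 12.20 and 12.09 on Control and 11.84, 11.89 and 11.82 on HCD, a log2 fold change of -0.26 ± 0.06 (SE, adjusted p = 0.013). Elovl2 read 12.22, 12.24 and 11.98 on Control and 11.59, 11.75 and 11.77 on HCD, a log2 fold change of -0.45 ± 0.09 (SE, adjusted p = 0.0050). The 2 groups did not overlap for any of these genes. The share of all genes without overlap was not counted, here or for the other groups said not to overlap. The call of Fads1 was kept with each single array left out, that of Fads2 was lost without pool A or C of HCD or pool B of Control, and that of Elovl2 without pool A of HCD or pool B of Control.

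The calls rest on a spread estimated over all 3 tissues. With the 15 liver arrays alone, HCD against Control called 31 genes of the table in place of 296, and none of the 4 members, at unadjusted p from 0.00022 for Elovl6 to 0.0032 for Fads2 and adjusted p from 0.070 to 0.27. The mean of 8 late clock genes moved with the diet as well, from 8.79 to 9.04 in Control to 9.18 to 9.31 in HCD, and 3 of the 8 were higher. The mean of 4 early clock genes moved from 8.02 to 8.10 down to 7.61 to 7.70, with 1 lower, and that of 7 fasting genes from 10.15 to 10.41 down to 9.90 to 10.05, with 2 lower. The mean of 4 macrophage markers was 8.50 to 8.57 in Control and 8.19 to 8.23 in HCD, with 1 lower, and that of 6 skeletal muscle markers 6.55 to 6.78 and 6.10 to 6.29, with 1 lower. Among 5 squamous epithelium markers 3 were lower in HCD. Their mean was 6.47, 6.95 and 5.88 in pools A, B and C of Control and 5.85 to 5.86 in HCD. The part of these signals in the results was not tested.

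All 3 treatments lowered Elovl6 against HCD. It read 10.36, 10.25 and 10.55 with HCD+Gl-1, 10.28, 10.45 and 10.09 with HCD+Gl-2, and 10.06, 10.30 and 10.05 with HCD+Sim, and every treated array was below every HCD array. The log2 fold changes were -0.56 ± 0.14 (SE, adjusted p = 0.023), -0.68 ± 0.14 (adjusted p = 0.0044) and -0.82 ± 0.14 (adjusted p = 0.00085). The treated groups overlapped the Control arrays, with differences from Control of 0.10 (95% interval -0.18 to 0.39), -0.01 (-0.30 to 0.27) and -0.15 (-0.43 to 0.14). These 3 comparisons share the HCD arrays, so a high HCD value enters each of them. The call with HCD+Sim was kept with each of its 6 arrays left out, that with HCD+Gl-2 was lost without its pool C or pool B of HCD, and that with HCD+Gl-1 was lost without its pool A or pool A or B of HCD. With liver arrays alone none of the 3 calls was kept (adjusted p = 0.15, 0.065 and 0.065 for Gl-1, Gl-2 and simvastatin). All 3 were also lost with the compared groups alone and with pools B and C only. Between treatments Elovl6 was not called, with 95% intervals of -0.40 to 0.17 for HCD+Gl-2 minus HCD+Gl-1, -0.03 to 0.54 for HCD+Gl-1 minus HCD+Sim and -0.15 to 0.42 for HCD+Gl-2 minus HCD+Sim.

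**Figure D2:**
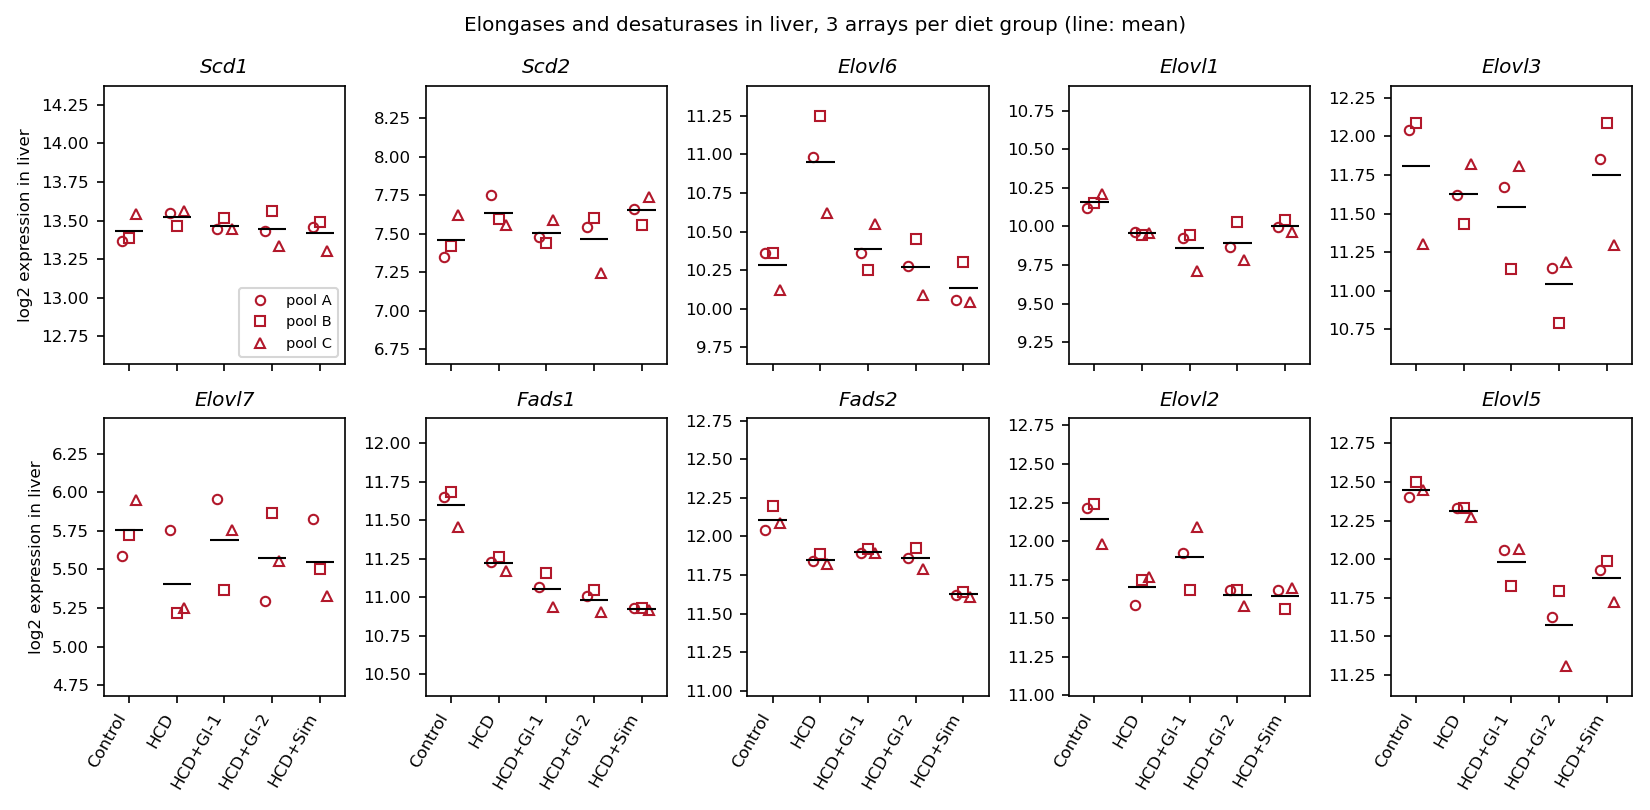
Liver values of the 10 genes (log2 expression, each panel spanning the same range of 1.8) in pools A, B and C of each diet, with a line at the mean. The HCD arrays of Elovl6 lie above all others, the 9 treated arrays of Elovl5 lie below the 6 others, and Scd1 stays between 13.30 and 13.57.

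Elovl5, which lengthens polyunsaturated chains of intermediate length, was the member with the largest response to an extract. It read 12.40, 12.50 and 12.45 on Control and 12.33, 12.33 and 12.27 on HCD, a difference that did not pass the test (-0.14 ± 0.10, adjusted p = 0.71). It read 12.06, 11.82 and 12.06 with HCD+Gl-1, 11.63, 11.79 and 11.31 with HCD+Gl-2 and 11.93, 11.99 and 11.72 with HCD+Sim. All 9 treated arrays lay below the 6 others.

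Against HCD, Elovl5 fell with HCD+Gl-2 by 0.73 on the log2 scale (SE 0.10, adjusted p = 1.8e-05), which is 1.66-fold. It fell with HCD+Sim by 0.43 (SE 0.10, adjusted p = 0.018), a call lost without pool A or B of HCD or pool C of HCD+Sim, and with HCD+Gl-1 the difference of -0.33 ± 0.10 (adjusted p = 0.065) missed the threshold. The call with HCD+Gl-2 was kept with each of the 6 arrays left out in turn and in the fit to liver arrays alone (adjusted p = 0.012). It was lost with the arrays of the 2 compared groups only (adjusted p = 0.14) and with pools B and C only (adjusted p = 0.054). With only pool B of HCD+Gl-2, the array with the lowest immediate early signal of that group, the difference was -0.52. Here and in the other fits that keep 1 array of a group, that array is assumed to vary like the arrays of the other groups.

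Fads1 and Fads2 responded to simvastatin. Fads1 read 10.93, 10.93 and 10.92 with HCD+Sim and Fads2 read 11.62, 11.64 and 11.61, each below all HCD arrays. The differences from HCD were -0.29 ± 0.07 (SE, adjusted p = 0.022) for Fads1 and -0.23 ± 0.06 (adjusted p = 0.047) for Fads2. The call of Fads1 was lost without pool A or B of HCD or pool B or C of HCD+Sim, and the call of Fads2 was lost with any of the 6 arrays left out, at -0.24 to -0.21.

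The extracts gave other values for Fads2 than simvastatin did. For Fads1 their differences from HCD+Sim, 0.13 for HCD+Gl-1 and 0.06 for HCD+Gl-2, were not called. Fads1 read 11.07, 11.16 and 10.93 with HCD+Gl-1 and 11.01, 11.05 and 10.90 with HCD+Gl-2, below all HCD arrays, with differences of -0.17 (adjusted p = 0.21) and -0.23 (adjusted p = 0.082) that missed the threshold. Fads2 read 11.89, 11.92 and 11.89 with HCD+Gl-1 and 11.86, 11.93 and 11.79 with HCD+Gl-2, close to HCD, with differences of 0.05 (95% interval -0.07 to 0.17) and 0.01 (-0.11 to 0.13). Elovl2 was at 11.90 ± 0.20 (SD, n = 3) with HCD+Gl-1, 11.65 ± 0.06 with HCD+Gl-2 and 11.65 ± 0.07 with HCD+Sim, and none of these differed from HCD by the test (adjusted p = 0.26, 0.89 and 0.90).

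In counts, HCD+Gl-1 changed 1 of the 10 members against HCD (2.48% of all genes), HCD+Gl-2 changed 2 (1.70%) and HCD+Sim changed 4 (1.1%). By the stricter rule, HCD+Gl-1 changed 0 members (0.163% of all genes), HCD+Gl-2 changed 1, Elovl5 (0.303%), and HCD+Sim changed 1, Elovl6 (0.258%). With liver arrays alone these counts were 0, 1 and 0 at the adjusted p alone, and the table as a whole held 26, 23 and 6 calls. Without pools A and B of HCD+Sim, the arrays with the pancreas and muscle signal, HCD+Sim changed 2 members, Elovl6 at -0.91 (adjusted p = 0.013) and Elovl5 at -0.59 (adjusted p = 0.018). Without pools A and C of HCD+Gl-2, HCD+Gl-2 changed 1 member, and Elovl6 was at -0.50 (adjusted p = 0.26).

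**Figure D3:**
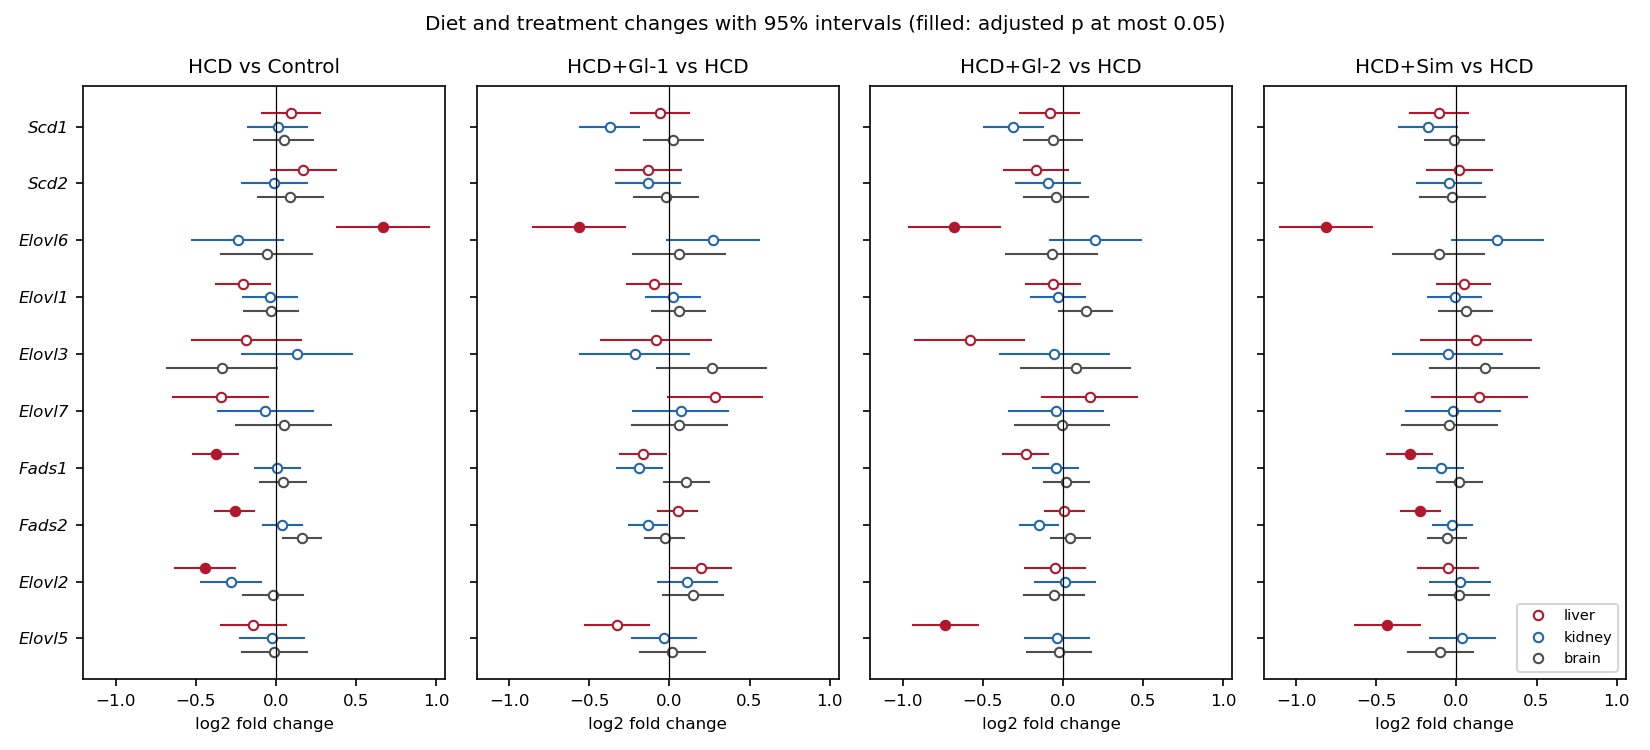
Log2 fold change of each of the 10 genes (horizontal axis) with its 95% interval, in liver, kidney and brain, for the HCD effect and the 3 treatment effects, with filled points at an adjusted p of at most 0.05. The 11 filled points are all liver points, and Elovl6 is filled in all 4 liver comparisons.

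Set against Control, the treated livers had lower Fads1, Fads2 and Elovl5 in all 3 treatments. HCD+Gl-1 changed 4 members (3.58% of all genes), HCD+Gl-2 changed 5 (2.86%) and HCD+Sim changed 4 (1.54%), and every one of these was lower. Fads1 fell by 0.54, 0.61 and 0.67 on the log2 scale (SE 0.07 each, adjusted p = 5.1e-06, 1.5e-07 and 3.9e-08). Elovl5 fell by 0.47, 0.88 and 0.57 (SE 0.10 each, adjusted p = 0.0042, 1.4e-07 and 0.00042). These groups share the Control arrays, and they differ from Control in the cholesterol of the diet as well as in the treatment. Other signals moved in the same comparisons. For the Gl-1, Gl-2 and simvastatin groups against Control, late clock genes were higher in 6, 6 and 5 of 8, early clock genes lower in 2, 3 and 2 of 4, and squamous markers lower in 2, 2 and 3 of 5. Skeletal muscle markers were lower in 3 and 2 of 6 with the Gl-1 and Gl-2 extracts, and 1 of 6 was higher with simvastatin. Fasting genes were lower in 1, 1 and 0 of 7. Immediate early genes were higher in 8 of 8 with the Gl-2 extract and 1 of 8 with simvastatin, and pancreas markers in 6 of 7 with simvastatin. Their part in the results was not tested.

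Fads2 fell against Control in all 3 as well, by 0.21 (adjusted p = 0.039), 0.25 (adjusted p = 0.010) and 0.48 (adjusted p = 9.7e-07). HCD without a treatment was at -0.26 from Control for Fads2, and HCD+Gl-1 and HCD+Gl-2 differed from HCD by only 0.05 and 0.01. Elovl2 fell by 0.50 with HCD+Gl-2 (adjusted p = 0.00067) and by 0.50 with HCD+Sim (adjusted p = 0.0011), and with HCD+Gl-1 it was at -0.25 (adjusted p = 0.13). The calls of Fads1 with all 3 treatments were kept with liver arrays alone (adjusted p = 0.0099, 0.0018 and 0.0011), as were those of Elovl5 with HCD+Gl-2 and HCD+Sim (adjusted p = 0.0011 and 0.035) and that of Fads2 with HCD+Sim (adjusted p = 0.0057). Among the other calls against Control, Elovl2 with HCD+Gl-2 was kept there (adjusted p = 0.035), and the remaining 6 were not.

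The treatments differed from each other in 3 members. Elovl5 was lower with HCD+Gl-2 than with HCD+Gl-1, the extracts being given at the same 1.0%, by -0.41 ± 0.10 (SE, adjusted p = 0.017), and it was the 1 member to differ, beside 3.94% of all genes. The highest HCD+Gl-2 array, 11.79, was just under the lowest HCD+Gl-1 array, 11.82. A fit to liver arrays alone called 0 of the 22080 genes in this comparison, with Elovl5 at adjusted p = 0.21. The call was lost without pool C of HCD+Gl-2 or without pool A or C of HCD+Gl-1, and with pool B alone for HCD+Gl-2 the difference was -0.19 (adjusted p = 0.43).

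Fads2 was higher with either extract than with simvastatin, which was given at another dose. The difference was 0.28 ± 0.06 (SE, adjusted p = 0.0060) for HCD+Gl-1, where 1 of the 10 members changed with 4.09% of all genes. It was kept with each array left out, but not with liver arrays alone (adjusted p = 0.16). It was also lost with the compared groups alone, with pools A and B only and with pools B and C only. For HCD+Gl-2 the difference was 0.23 ± 0.06 (adjusted p = 0.034). This call was lost with 5 of the 6 arrays left out and with liver arrays alone (adjusted p = 0.39). HCD+Gl-2 and HCD+Sim differed in 2 members, beside 1.31% of all genes, the other being Elovl3.

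Elovl3, known as a gene with a strong daily rhythm in liver, varied most between pools. It read 12.04, 12.09 and 11.30 on Control, 11.62, 11.43 and 11.82 on HCD, 11.67, 11.14 and 11.81 with HCD+Gl-1, 11.15, 10.79 and 11.19 with HCD+Gl-2 and 11.85, 12.09 and 11.30 with HCD+Sim. The HCD+Gl-2 arrays were below all Control, HCD and HCD+Sim arrays and overlapped those of HCD+Gl-1. The log2 differences were -0.77 ± 0.17 from Control (SE, adjusted p = 0.0048) and -0.58 ± 0.17 from HCD (adjusted p = 0.070). They were -0.50 ± 0.17 from HCD+Gl-1 (adjusted p = 0.081) and -0.70 ± 0.17 from HCD+Sim (adjusted p = 0.023). This SE pools all tissues, and the SD within groups was 0.34 for liver but 0.15 for kidney and 0.11 for brain. It therefore understates the liver spread of Elovl3. With liver arrays alone the SE was 0.22, and both calls were lost (adjusted p = 0.16 for Control and 0.39 for HCD+Sim). The call against Control was also lost without pool A or without pool B of Control.

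Clock genes moved in the same livers. The mean of 8 late clock genes was 9.63 to 9.76 in HCD+Gl-2 against 9.18 to 9.31 in HCD, with 5 of the 8 higher, and the mean of 4 early clock genes was 7.22 to 7.36 against 7.61 to 7.70, with 2 of the 4 lower. All 8 immediate early genes were higher in HCD+Gl-2 than in HCD. Elovl3 was lowest in pool B of HCD+Gl-2. The immediate early signal of this pool, 7.02, was the lowest of its group but above all Control, HCD and HCD+Gl-1 liver arrays. The part of either signal in the values of Elovl3 or Elovl5 was not tested. The Elovl3 difference from HCD+Sim was lost without pool B of HCD+Gl-2, without pool A or without pool B of HCD+Sim, and with pool C alone for HCD+Sim it was -0.25 (adjusted p = 0.59).

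The other members of the liver changed little. Scd1 differed from HCD or Control by no more than 0.11 in either direction over the 7 diet comparisons, with adjusted p of 0.71 or above. Its intervals for the treatments against HCD reached down to -0.24, -0.27 and -0.29. Scd2 was between 7.25 and 7.75 in all liver arrays and passed no test. Elovl1 fell with HCD+Gl-1 against Control, by 0.30 (SE 0.08, adjusted p = 0.033), from 10.12, 10.15 and 10.21 to 9.92, 9.95 and 9.71, a call that was lost with 5 of the 6 arrays left out. Elovl7 lay between 5.22 and 5.95 and passed no test.

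In kidney and brain none of the 10 members changed in any of the 4 diet comparisons. In kidney the diet itself, the Gl-1 extract, the Gl-2 extract and simvastatin changed 0.131%, 0.267%, 0.996% and 0.222% of all genes, and in brain 0.0543%, 0.0181%, 0.0362% and 0.0181%. At an unadjusted p under 0.05 there were 6 of 40 cases in kidney and 1 of 40 in brain, by limma, where 5.91% and 6.04% of all genes were past it. The log2 fold changes lay between -0.37 and 0.27 in kidney and between -0.34 and 0.26 in brain.

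Scd1 in kidney came closest. It read 10.79, 10.91 and 10.70 in HCD, 10.44, 10.40 and 10.44 with HCD+Gl-1 and 10.55, 10.48 and 10.44 with HCD+Gl-2, without overlap. The differences were -0.37 ± 0.09 (SE, adjusted p = 0.066) and -0.31 ± 0.09 (adjusted p = 0.096). Elovl2 in kidney read 8.32, 8.24 and 8.28 on Control and 8.02, 8.00 and 7.97 on HCD, also without overlap, at -0.28 ± 0.09 (SE, adjusted p = 0.53).

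Whether liver differed from the other tissues in its response was tested as a contrast of 2 differences. For Elovl6 the liver response exceeded that of kidney by 0.91 ± 0.20 (SE, adjusted p = 0.028) for HCD against Control, where 1 member and 0.263% of all genes differed. It was lower than that of kidney by -0.84 ± 0.20 (adjusted p = 0.041) for HCD+Gl-1, where 1 member and 0.389% of genes differed, and by -1.07 ± 0.20 (adjusted p = 0.0040) for HCD+Sim, where 1 member and 0.299% of genes differed. For HCD+Gl-2 2 members and 0.625% of genes differed, Elovl6 by -0.88 ± 0.20 (adjusted p = 0.020) and Elovl5 by -0.70 ± 0.14 (adjusted p = 0.0062).

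Against brain, the responses of Fads1 and Fads2 to HCD were lower in liver by -0.42 ± 0.10 (SE, adjusted p = 0.044) and -0.42 ± 0.08 (adjusted p = 0.0092), beside 0.326% of all genes. For HCD+Gl-2 Elovl5 differed, by -0.71 ± 0.14 (SE, adjusted p = 0.0078), beside 0.598% of genes. For HCD+Gl-1 and HCD+Sim no member differed between liver and brain (0.362% and 0.0996% of genes), with 3 members each at an unadjusted p under 0.05 by limma, as were 11.5% and 8.45% of all genes. For Elovl6 the 4 differences between liver and brain had adjusted p between 0.12 and 0.19. With each of 12 arrays left out in turn, the calls of Elovl5 with HCD+Gl-2 and of Elovl6 with HCD+Sim were kept in all 12 cases. Those of Elovl6 were kept in 4 cases for HCD and for HCD+Gl-1 and in 6 for HCD+Gl-2, that of Fads1 in 3 and that of Fads2 in 10.

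Some genes that supply palmitate changed in the same liver comparisons as Elovl6. Of 7 such genes, 2 rose in HCD liver, Fasn, fatty acid synthase, by 0.85 (log2, adjusted p = 0.019) and Acaca, the carboxylase that makes malonyl-CoA, by 0.51 (adjusted p = 0.0055). In that comparison 0.575% of all genes rose, and 3 of the 7 had a negative log2 fold change, with 0 called lower. Fits with arrays left out were made for the 10 members only. Against HCD, 6 of the 7 fell with each treatment, with median log2 fold changes of -0.55, -0.78 and -0.78 for the Gl-1, Gl-2 and simvastatin groups, against -0.01, 0.01 and 0.03 over all genes. Of all genes, 0.996%, 0.874% and 0.263% fell. Fasn fell by 1.18, 0.84 and 1.11, and Acly, which makes cytosolic acetyl-CoA from citrate, by 1.04, 0.87 and 0.90.

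Of 12 regulators, 4 rose in HCD liver, where 0.575% of all genes rose. Srebf1, which encodes SREBP-1, rose by 1.14 (log2, adjusted p = 1.8e-06), Thrsp by 1.05 (adjusted p = 0.011), Pparg by 0.65 (adjusted p = 3.6e-05) and Mlxipl, which encodes the glucose-responsive factor ChREBP, by 0.36 (adjusted p = 0.0078). Against HCD, where 0.996%, 0.874% and 0.263% of all genes fell with Gl-1, Gl-2 and simvastatin, 1 of the 12 fell with each treatment. It was Srebf1 with HCD+Gl-1 (-0.80, adjusted p = 0.00089), Insig2 with HCD+Gl-2 (-0.60, adjusted p = 0.0092) and Thrsp with HCD+Sim (-1.06, adjusted p = 0.014). Srebf1 was at -0.39 (adjusted p = 0.18) and -0.42 (adjusted p = 0.17) with HCD+Gl-2 and HCD+Sim.

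**Figure D4:**
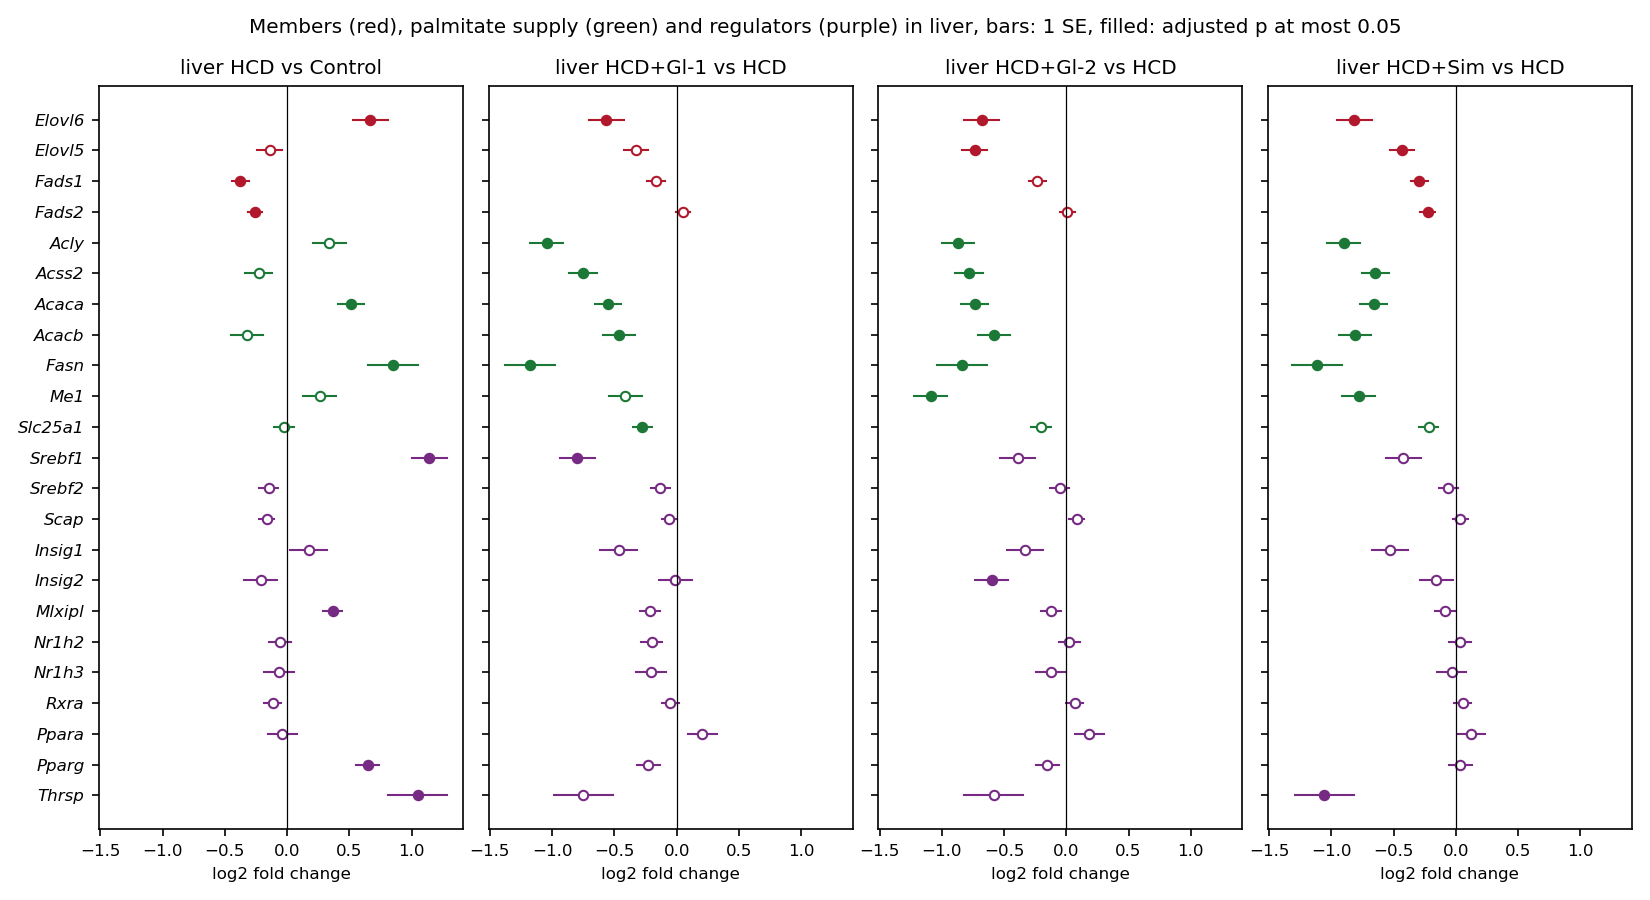
Liver log2 fold change (horizontal axis, bars of 1 SE) of Elovl6, Elovl5, Fads1 and Fads2 with 7 genes of palmitate supply and 12 regulators, for the HCD effect and the 3 treatment effects, filled at an adjusted p of at most 0.05. Fasn and Acaca rise with Elovl6 in HCD, and 6 of the 7 supply genes fall with each treatment.

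Other genes act with the elongases and desaturases. Of 6 enzymes that complete each round of elongation, 0 changed with HCD, with HCD+Gl-2 or with HCD+Sim. With HCD+Gl-1 Hacd3, a dehydratase of the cycle, rose by 0.39 (log2, adjusted p = 0.018) and Tecr, the final reductase, fell by 0.29 (adjusted p = 0.047). Hsd17b12, the ketoacyl reductase, was lower with HCD+Gl-2 than with HCD+Gl-1 by -0.52 (adjusted p = 0.0025). Among 6 electron donors of the desaturases, the cytochrome gene Cyb5b fell by 0.45 with HCD+Gl-2 (adjusted p = 0.00049) and by 0.39 with HCD+Sim (adjusted p = 0.0048). Of 5 other elongase and desaturase genes, among them Elovl4 and Fads3, none changed in the 4 liver comparisons.

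Genes after the elongation steps gave single changes. Of 7 genes of the peroxisomal last steps of docosahexaenoic acid synthesis, Abcd2, a peroxisomal importer of long chains, fell with HCD by 1.02 (log2, adjusted p = 0.00025). Of 4 acyl-CoA synthetases measured, Acsl1 rose with HCD+Gl-1 by 0.38 (adjusted p = 0.033) and Acsl5 fell with HCD+Gl-2 by 0.49 (adjusted p = 0.012). None of 7 lysophospholipid acyltransferases, which place these chains in membranes, changed in the 4 liver comparisons.

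As a description, the genes with the closest profile over the 15 liver arrays, which share the diet groups, were named for each member changed by HCD against Control or by a treatment against HCD. For Elovl5 they were Acsl5 (Pearson coefficient 0.976), Tlcd2 (0.950) and Aqp8 (0.931). For Fads1 they were Dhcr7 (0.940), Acacb (0.913) and Cyp51 (0.912), of which Dhcr7 and Cyp51 encode enzymes of cholesterol synthesis. For Fads2 they were Fabp5 (0.845), Cyp51 (0.835) and Fads1 (0.833). For Elovl6 they included Pdk1 (0.875) and Acaca (0.848), and for Elovl2 they were Agtr1a (0.884), Itih2 (0.873) and Arhgef3 (0.872).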

How the data were processed

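The 45 arrays were grouped by tissue and diet as given per the labels, with 3 pools per group. Some description lines name brain for arrays of other tissues, and the title and tissue fields were used. Before deposit the authors applied RMA background correction, quantile normalization in oligo and ComBat, whose batches are not given in the sources used here. Of several probe sets for a gene, the one that varied most was deposited, as a log2 value. Every column matched a sample.

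A limma 3.58.1 model (R 4.3.3) of 15 group means over all 45 arrays was moderated by empirical Bayes, with Benjamini-Hochberg adjustment over 22080 genes within each contrast. The step was tested on simulated data with independent arrays and, for each gene, the same spread in all tissues. That test therefore did not cover the shared RNA of pool C or unequal spreads between tissues. Pool letters were checked for pairing through the correlation of deviations from group means. In 2 of 10 liver comparisons of groups all 3 same-letter pairs were over 0.1, Gl-1 with Gl-2 (0.142 to 0.265) and Gl-2 with simvastatin (0.115 to 0.195). Any pairing there is read from the data, not from the labels. Same-letter pairs in brain ranged from -0.382 to 0.421. The number of arrays limits the precision, and with 3 against 3 an exact two-sided permutation test cannot give a p under 0.1. The members, the gene lists and the rule for naming genes (all members, at most 4 genes of a list in a comparison, and the 3 genes closest to a member changed by HCD or against HCD) were chosen with earlier results of these data known. One of these closest genes is not reported here. Of the listed genes Acsl3 and Adgre1 had no row. Alternatives were fits to fewer arrays, a pool block, a filter on dim genes, other scalings and moderation, array weights, and each array left out. Promoters are from RefSeq, and protein sequences were not analysed here. Plots used matplotlib 3.10.9 under Python 3.11.15.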

Additional observations from a re-analysis of the deposited data

Results flagged for a closer look

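A response that differed between tissues, by a test of the difference itself, was found in 8 cases, all listed with the log2 difference of the liver response from that of the other tissue. For HCD against Control these were Elovl6 against kidney (0.91), Fads1 against brain (-0.42) and Fads2 against brain (-0.42). For HCD+Gl-1 against HCD it was Elovl6 against kidney (-0.84). For HCD+Gl-2 against HCD they were Elovl5 against kidney (-0.70), Elovl6 against kidney (-0.88) and Elovl5 against brain (-0.71). For HCD+Sim against HCD it was Elovl6 against kidney (-1.07). Groups of 3 arrays were not searched for single arrays that stand apart.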

How the results depend on the processing

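The counts below are members changed, of 10, and no value of a called member turned its direction under any alternative. Among the alternatives, the share of all genes called was counted only with liver arrays alone and with the fold threshold. In liver, with the arrays of the compared groups alone, the count fell from 4 to 0 for HCD against Control, to 0 for each treatment against HCD, from 4 to 0, 5 to 2 and 4 to 1 for Gl-1, Gl-2 and simvastatin against Control, and to 0 for each pair of treatments. With liver arrays alone it was 0 for HCD against Control (0.14% of all genes) and 0, 1 and 0 for the treatments against HCD (0.118%, 0.104% and 0.0272%). It was 1 and 3 for Gl-1 and Gl-2 against Control (0.362% and 0.756%). For simvastatin against Control, Fads1, Fads2 and Elovl5 were kept there, beside 0.362% of all genes. The count was 0 for each pair, beside 0% for Gl-2 and Gl-1, 0.104% for Gl-1 and simvastatin and 0.0589% for Gl-2 and simvastatin. With pools B and C only, an alternative added after the data were seen, it was 0 for HCD against Control, for the treatments against HCD and for each pair, and 1, 2 and 2 against Control. With the fold threshold added it was 0 for HCD against Control (0.245% of all genes) and 0, 1 and 1 against HCD (0.163%, 0.303% and 0.258%). Against Control it was 0, 2 and 0 (0.322%, 0.584% and 0.358%). For the pairs Gl-2 and Gl-1, Gl-1 and simvastatin, Gl-2 and simvastatin it was 0, 0 and 1 (0.172%, 0.249% and 0.285%).

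For Gl-1 against HCD, main count 1, array weights gave 5, and moderation with a trend, pools A and B only and renewed quantile normalization gave 2 each. The weights did not converge. In liver they gave pool A of Gl-1 10.4 and its pools B and C 0.301 and 0.32, so that group rested mostly on 1 array. The weights gave counts of 4, 3 and 1 for the 3 pairs. Centring gave 2 for Gl-1 against Control and 2 for Gl-1 against simvastatin. Pools A and B only gave 0 for Gl-2 against Gl-1 and 1 for Gl-2 against simvastatin. Both further alternatives left out arrays after the data were seen. Without pools A and C of Gl-2 the counts were 1 against HCD, 3 against Control, and 0 against Gl-1 and simvastatin. Without pools A and B of simvastatin they were 2 against HCD and 0 against Gl-2.

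In kidney the count of 0 became 1 with array weights for HCD, Gl-1 and Gl-2, with pools A and B only for Gl-1 and Gl-2, and for Gl-1 also with centring, a trend, renewed quantile normalization and the pool letter as a replicate block, where the gene for Gl-1 was Scd1. For the difference of liver and brain, the count was 1 with centring and 0 with the compared groups, the fold threshold and pools B and C for HCD, 2 with weights and 1 with pools A and B for Gl-1, and 0 with the compared groups, without Gl-2 pools A and C, and with pools B and C for Gl-2. For the difference of liver and kidney it was 2 with weights, a trend and the replicate block and 0 with the compared groups and pools B and C for HCD, 2 with weights and 0 with centring, the compared groups and pools B and C for Gl-1, 1 with the fold threshold and 0 with the compared groups, without Gl-2 pools A and C, and with pools B and C for Gl-2, and 2 with weights and 0 with pools B and C for simvastatin.

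With 1 array left out in turn, counts in liver were 2 to 4 for HCD against Control, 0 to 2, 1 to 2 and 1 to 3 for Gl-1, Gl-2 and simvastatin against HCD, and 2 to 4, 3 to 6 and 4 to 4 against Control. They were 0 to 3, 1 to 2 and 0 to 2 for the 3 pairs. Differences from kidney gave 0 to 1, 0 to 1, 1 to 2 and 1 to 1, and from brain 0 to 3, 0 to 0, 1 to 1 and 0 to 0. Tissue levels gave 10 to 10, 9 to 10 and 7 to 8, and the kidney and brain diet counts stayed at 0 to 0. By the correlation of same-letter deviations, all 3 pairs were over 0.1 in 2 of 10 liver comparisons of groups, Gl-1 with Gl-2 and Gl-2 with simvastatin. The replicate block changed no call there. The rule was applied to liver only, and in brain Control with Gl-2 met it as well (0.155 to 0.293). In the other liver comparisons the samples share only a letter. There the block brought Fads1 for Gl-2 against HCD past the threshold (adjusted p = 0.033), as did a trend (adjusted p = 0.040), and it did the same for the differences of Elovl6 from brain and Fads1 from kidney for HCD (adjusted p = 0.026 and 0.033). Beside these and Scd1 in kidney, the block changed no call of a member. The causes were not tested.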
